A study of Rattus norvegicus with 8 samples.

Results

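The genes described here encode the proteins of the cytosolic ribosome, measured in whole rat testis after Adjudin. They were taken by symbol: probe sets annotated with 1 gene symbol that begins with Rpl or Rps and a digit, or that is Rplp0, Rplp1, Rplp2 or Rpsa, without S6 kinases and pseudogenes. This gave 55 probe sets of 48 genes, and 50 probe sets of 44 genes reached a deposited signal of 50 on at least 2 arrays, out of 19808 probe sets that did so on an array of 31042 non-control probe sets. By role, the 50 comprised 28 probe sets of the large (60S) subunit, 15 of the small (40S) subunit, 1 of the stalk protein Rplp0, and 6 of paralogues (Rpl39l1, Rpl26l1, Rpl7l1, Rps27l and Rps4y2). The other 5 stayed below the minimum: Rpl3l, a paralogue of Rpl3 whose highest signal was 7.70, and further probe sets of Rpl14, Rpl28, Rpl30 and Rps13. Just inside the minimum, the second-highest signals were 83.8 for a probe set of Rps24, 97.4 for Rpl26l1 and 134.8 for a probe set of Rpl7. Just outside it they were 35.8 for the Rps13 probe set and 32.0 for that of Rpl28.

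Adult Sprague-Dawley rats received a single dose of Adjudin, a compound known to release developing germ cells from Sertoli cells, of 50 mg/kg by gavage. Testes were taken at 4 d (n = 3 arrays) and at 8 h (n = 2), and untreated rats served as controls (n = 3). No vehicle is named for the controls, and the description field calls every sample normal, so the groups rest on the sample titles. The labels do not state that each array came from its own animal, so a p-value reflects the scatter among these samples alone, and that scatter may be technical.

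A ribosome is built from ribosomal RNA and a protein set that every cell needs in fixed proportions. Most messenger RNAs of these proteins start with a run of pyrimidines, the 5′ terminal oligopyrimidine (TOP) motif, through which the kinase complex mTORC1 controls their translation, and this control does not by itself alter the amount of messenger RNA. Several ribosomal proteins have a paralogue. In mouse, Rpl39l takes the place of Rpl39, a protein that lines the exit tunnel of the 60S subunit, in ribosomes of male germ cells.

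The ribosomal protein transcripts were bright in every group. The mean control signal of the 50 probe sets had a median of 4297 (44.5 to 11289), and 82% of them reached 1000, against 12.9% of all tested probe sets. Signals of different probe sets are not on a common scale, so no order of abundance between genes is read from them. Per array, the median signal of the 50 was 4380, 4388 and 5881 at 4 d, 4054 and 4991 at 8 h, and 3901, 4116 and 5102 in controls. The highest arrays of the 3 groups were scanned on the same day. Arrays had been scanned on 3 days, each called a run here. Run 1 held replicate 1 of each group, run 2 held 4 d 2 and control 2, and run 3 held 4 d 3, 8 h 2 and control 3. Run 3 stood above run 1 by a median log2 of 0.41 over the 50 probe sets at 4 d, 0.32 at 8 h and 0.37 in controls, and 41 to 44 of the 50 were higher there. Over all tested probe sets the same differences were -0.06, -0.12 and -0.13. The run thus moved with the signal of these transcripts in all groups, and values are given within runs, and the fit that includes run as a blocking factor (the blocked fit) is set beside the fit that does not.

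**Figure D1:**
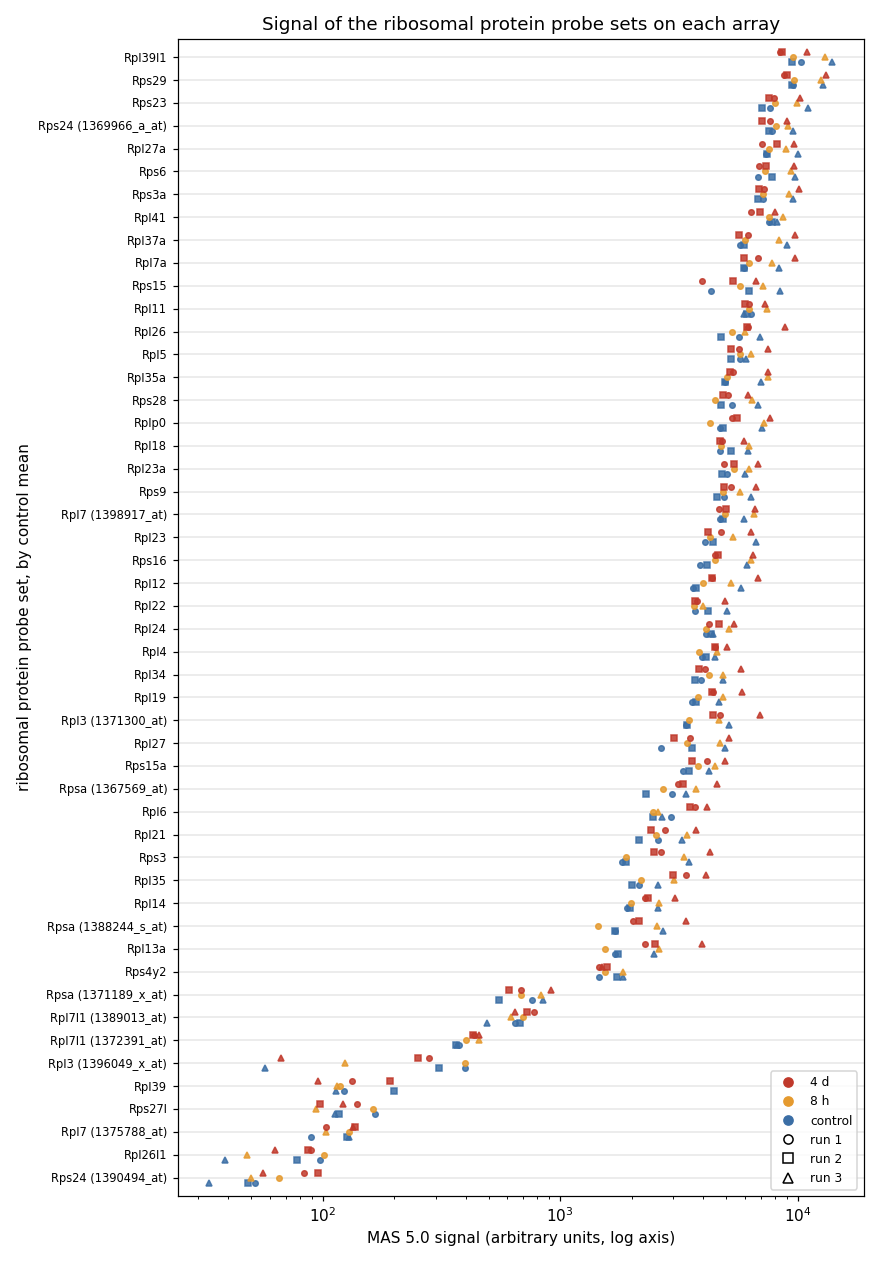
Signal of the 50 ribosomal protein probe sets on each of the 8 arrays, on a log axis in arbitrary units, ordered by control mean; colour gives the group and symbol shape the run. For most bright probe sets the triangles of run 3 lie to the right of the other arrays of the same group, and for 45 of 50 the 4 d and control arrays overlap.

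At 4 d against control, transcripts of the 60S proteins Rpl6 and Rpl35 rose, and no ribosomal protein transcript fell. In limma with Benjamini-Hochberg adjustment over all tested probe sets, 2 of 50 rose (4%), 0 fell and 48 did not pass, where 6.13% of all tested probe sets rose and 3.71% fell. At an unadjusted p below 0.05, 3 were higher and 0 lower, where 2764 of all 19808 tested probe sets were higher and 1735 lower. With the blocked fit 12 rose (24%) and 1 fell (2%), where 13.3% of all tested probe sets rose and 9.17% fell. The median log2 change of the 50 was 0.10, with 0.09, 0.10 and 0.16 in runs 1, 2 and 3, beside 0.04 over all tested probe sets, and single changes lay between -0.27 and 0.63. The median standard error of these changes was 0.19 without the block and 0.07 with it, against 0.22 and 0.16 over all tested probe sets. The block thus narrowed the error of these bright probe sets more, so the blocked shares compare sets measured with unlike precision. In 37 of 50 (74%) the change was positive, where 54.3% of all tested probe sets had a positive change. In all 3 runs 26 of the 50 (52%) were higher and 5 (10%) lower, where all tested probe sets gave 31.4% and 24.2%. In 5 of 50 (10%) every 4 d array lay above every control array, and in 0 below, where all tested probe sets gave 17.5% and 11.8%. The share of members called in the fit without a block thus lay near or below that of all probe sets. In whole testis, fewer cells of a type and less RNA per cell cannot be told apart.

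Rpl6 encodes a 60S protein. Its signal was 3714, 3515 and 4148 at 4 d, 2464 and 2593 at 8 h, and 2926, 2454 and 2691 in controls. Every array at 4 d lay above every other array, with group means of 3792 ± 324 at 4 d and 2690 ± 236 in controls (SD, n = 3 each). The log2 change was 0.49 (SE 0.12), a 1.41-fold rise, with adjusted p = 0.029 in limma and 0.00101 with the blocked fit. The run values were 0.34, 0.52 and 0.62. Rpl35, which sits beside the exit of the peptide tunnel, had 3404, 2988 and 4111 at 4 d, 2182 and 3021 at 8 h, and 2143, 2009 and 2574 in controls. Its 4 d arrays lay above all controls, and 8 h 2 lay within the range at 4 d. Group means were 3501 ± 568 at 4 d and 2242 ± 295 in controls (SD, n = 3 each), a log2 change of 0.63 (SE 0.17), 1.55-fold, with adjusted p = 0.0444 in limma and 0.000205 with the blocked fit. Its run values were 0.66, 0.57 and 0.67. Both calls were lost with equal array medians, in the fit without a variance trend, without run 2, and without any one of control 2, 4 d 1, 4 d 2 and 4 d 3, with adjusted p up to 0.258 for Rpl6 and 0.238 for Rpl35 over all alternatives. Rpl6 was also lost without control 3, and Rpl35 without control 1 and with no signal minimum. Their direction was positive in all 21 alternatives. The log2 changes stayed the same with the block, without a trend, with another minimum, with 2 groups alone or without an 8 h array. In those fits the direction could not turn.

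**Figure D2:**
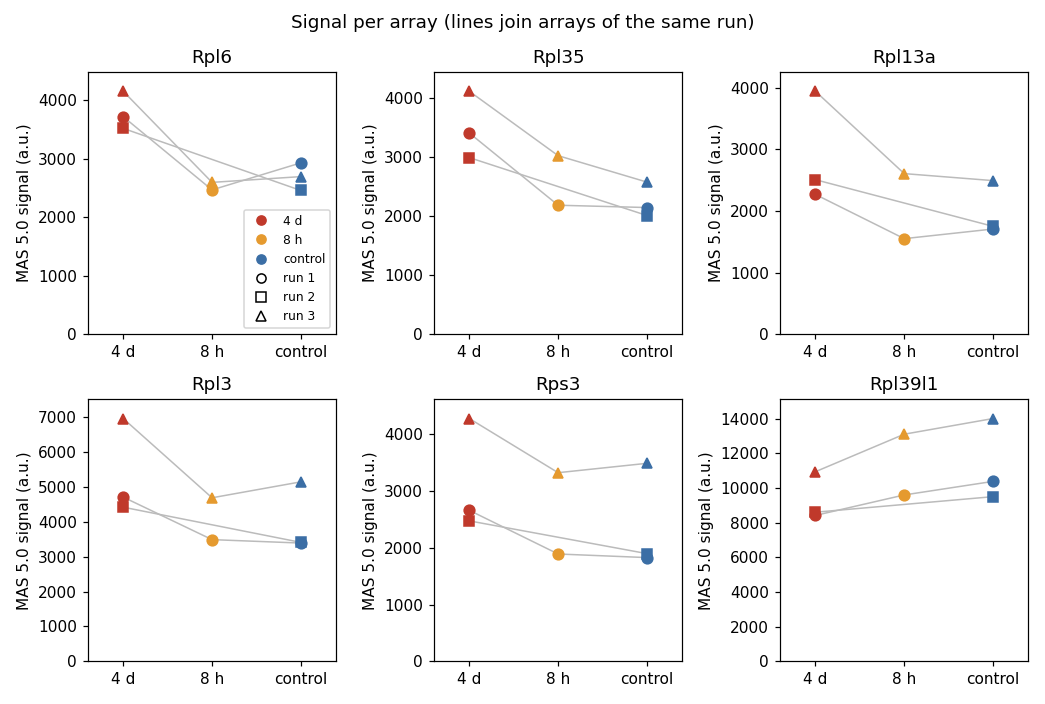
Signal per array (arbitrary units, axis from 0) of Rpl6, Rpl35, Rpl13a, Rpl3 (probe set 1371300_at), Rps3 and Rpl39l1 at 4 d, 8 h and in controls; lines join arrays of the same run. In each of the 3 runs the 4 d array lies above the control array for all but Rpl39l1, where it lies below.

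The other 10 probe sets that rose at 4 d with the blocked fit did not pass without the block. Rpl13a, a 60S protein known for a second role in translational silencing after interferon gamma, had 2267, 2507 and 3941 at 4 d, 1550 and 2606 at 8 h, and 1706, 1750 and 2492 in controls. The groups overlapped, since control 3 exceeded 4 d 1, while within runs the log2 change was 0.41, 0.51 and 0.66. It averaged 0.53 (SE 0.26), with adjusted p = 0.262 in limma and 0.000838 with the blocked fit. Rpl3, which lies near the peptidyl transferase centre, had 4706, 4418 and 6957 at 4 d, 3489 and 4687 at 8 h, and 3390, 3410 and 5144 in controls (probe set 1371300_at). Here too control 3 exceeded 4 d 1 and 4 d 2, and the log2 change of 0.43 had adjusted p = 0.299 in limma and 0.00103 with the blocked fit. A dimmer Rpl3 probe set, 1396049_x_at, whose name marks possible cross-hybridisation, gave a log2 change of -0.20 with 281, 251 and 66.8 at 4 d, 397 and 125 at 8 h, and 399, 308 and 57.4 in controls.

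Among 40S proteins the largest change with a bright signal was that of Rps3, which lines the entry of the messenger RNA channel. It had 2660, 2475 and 4277 at 4 d, 1892 and 3324 at 8 h, and 1828, 1898 and 3489 in controls. Both other arrays of run 3 lay above 4 d 1 and 4 d 2, and the log2 change of 0.40 had adjusted p = 0.5 in limma and 0.00318 with the blocked fit. Of the 3 probe sets of Rpsa, a 40S protein also known as a laminin receptor, 1367569_at changed by 0.34 (blocked adjusted p = 0.0175), 1388244_s_at by 0.30 (0.0133) and 1371189_x_at by 0.04 (0.833). The remaining ones were the 60S proteins Rpl19 (log2 0.28, blocked adjusted p = 0.00848), Rpl26 (0.28, 0.0212), Rpl14 (0.25, 0.0258) and Rpl12 (0.24, 0.0309), and a dim probe set of the 40S protein Rps24. That Rps24 probe set, 1390494_at, had 83.8, 95.4 and 55.9 at 4 d, 65.7 and 49.8 at 8 h, and 51.9, 48.5 and 33.3 in controls, so it lay close to the minimum of 50. Its log2 change was 0.63 (adjusted p = 0.178 in limma, 0.0444 with the blocked fit), while the brighter Rps24 probe set 1369966_a_at gave -0.07. Rplp0, the stalk protein that binds translational GTPase factors with its partners, changed by 0.16 (adjusted p = 0.769, blocked 0.103). Rps6, the substrate of S6 kinase, changed by -0.03. By subunit, 2 of 28 probe sets of 60S proteins rose and 0 fell (7.14%, where 6.13% of all tested probe sets rose; median 0.11), and 0 of 15 probe sets of 40S proteins rose or fell in limma (1 at an unadjusted p below 0.05; median 0.04). With the blocked fit 8 of the 60S set (28.6%) and 4 of the 40S set (26.7%) rose and 0 fell, where 13.3% of all tested probe sets rose.

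**Figure D3:**
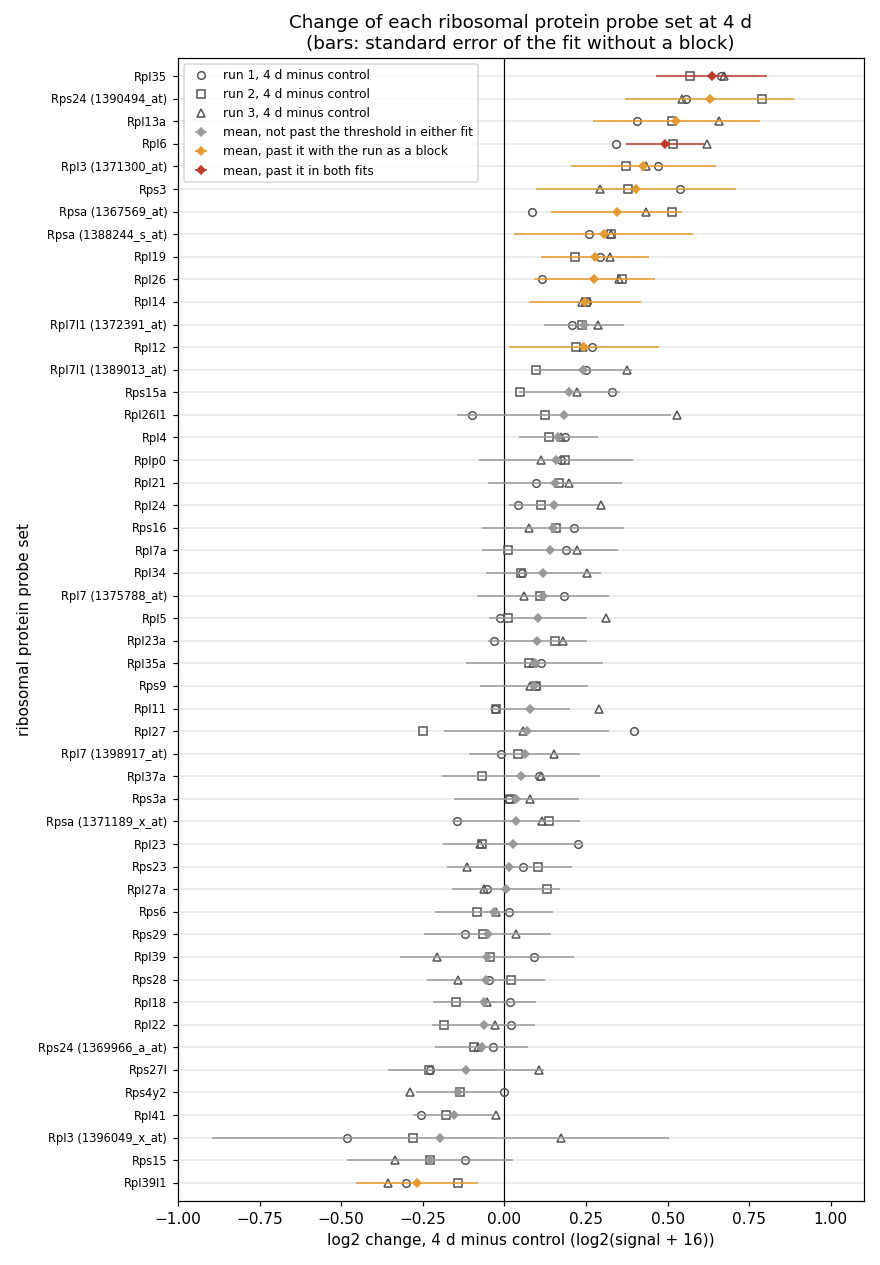
Log2 change at 4 d minus control of the 50 probe sets, on the log2(signal + 16) scale; diamonds are means with the standard error of the fit without a block, open symbols the values in each run. Rpl35 and Rpl6 (red) passed in both fits, and 11 others (orange), 10 higher and Rpl39l1 lower, passed with the run as a block alone.

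These counts moved with the scaling between arrays. Quantile normalization gave 13 rises at 4 d without the block (26%, where 5.71% of all tested probe sets rose) and 31 with it (62%, where 11.8% rose), with 0 falls in each (4.96% and 10.8% of all). Equal array medians gave 0 rises and 0 falls without the block (3.93% and 5.01% of all). With the block they gave 4 rises (8%, where 8.76% of all tested probe sets rose) and 5 falls (10%, where 15% of all fell). The rises in that last fit were Rpl6, Rpl13a, Rpl3 and Rpl35, and the falls were Rpl39l1, Rps15, Rpl41, Rps29 and the bright Rps24 probe set. The median of the 50 was 0.27 after quantile normalization, where all tested probe sets had -0.01, and -0.04 with equal medians, where all tested probe sets had -0.10. Equal medians lowered every probe set alike, so the median of the 50 stood 0.07 above that of all tested probe sets with and without it. Without 4 d 3 the median was -0.03, in a fit without the block where control 3 and 8 h 2 alone came from run 3. It was 0.08 without all of run 3 and 0.14 without run 2.

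The lowest change at 4 d was that of Rpl39l1, the rat paralogue of Rpl39. Its signal was 8415, 8598 and 10934 at 4 d, 9593 and 13095 at 8 h, and 10375, 9495 and 13998 in controls, with means of 9316 ± 1405 at 4 d (SD, n = 3), 11344 ± 2476 at 8 h (SD, n = 2) and 11289 ± 2386 in controls (SD, n = 3). The groups overlapped, and within each run the 4 d array was lower than the control array, by a log2 of -0.30, -0.14 and -0.36. The log2 change of -0.27 (SE 0.19) had adjusted p = 0.457 in limma. With the blocked fit Rpl39l1 fell (SE 0.06, adjusted p = 0.00653), the 1 fall among the members, and with quantile normalization added to that fit it did not pass (log2 -0.06, adjusted p = 0.379). Its direction was negative in all 21 alternatives. As for Rpl6 and Rpl35, several of these leave the log2 change as it is, so in them the direction could not turn. Set against the median log2 signal of the 39 core ribosomal protein genes on the same array, Rpl39l1 stood 0.84, 0.86 and 0.73 above that median at 4 d, 1.09 and 1.12 above it at 8 h, and 1.26, 1.05 and 1.22 above it in controls. The 4 d arrays lay below all others on this measure, with a difference of 0.81 ± 0.07 at 4 d and 1.18 ± 0.11 in controls (SD, n = 3 each). The log2 change of Rpl39l1 less the median change of the core genes was -0.37, and it lay between -0.47 and -0.30 over the alternatives. Equal medians and the alternatives that leave the log2 changes as they are could not alter it, so this range rests on the others. Among the core genes, whose median change was 0.10, Rps15 changed by -0.23, with -0.12, -0.23 and -0.33 in runs 1, 2 and 3. The ratio of Rpl39l1 to the core median within an array shows unequal change, not which side changed. Rpl39 itself was dim, with 132, 193 and 96.1 at 4 d, 118 and 115 at 8 h, and 123, 199 and 113 in controls, and its log2 change of -0.05 (adjusted p = 0.945) was positive without run 3 (0.02).

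**Figure D4:**
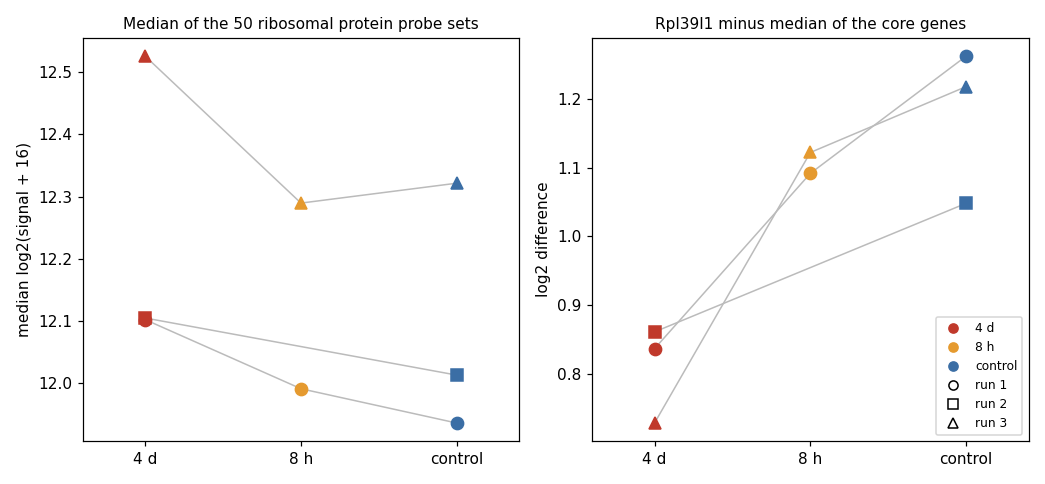
Left, median log2(signal + 16) of the 50 ribosomal protein probe sets per array; right, Rpl39l1 minus the median of the 39 core genes per array, a log2 difference; lines join arrays of the same run. On the left the array of run 3 is the highest of each group, and on the right the 4 d arrays (0.73 to 0.86) lie below those at 8 h and in controls (1.05 to 1.26).

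The other paralogues did not pass in either fit. Rpl7l1, a paralogue of Rpl7, had 436, 432 and 455 at 4 d, 402 and 454 at 8 h, and 375, 364 and 370 in controls (probe set 1372391_at). All arrays at 4 d and at 8 h lay above all controls, and the log2 change at 4 d was 0.24 (adjusted p = 0.275, blocked 0.128), with 0.24 for its other probe set as well. Rpl7 changed by 0.06 and 0.12 in its 2 probe sets. Rpl26l1 changed by 0.18 (adjusted p = 0.812) on a dim signal of 62.9 to 89.8 at 4 d, 48.2 to 101 at 8 h and 38.7 to 97.4 in controls, beside 0.28 for Rpl26. Rps27l, a p53-responsive paralogue of Rps27, changed by -0.12 (adjusted p = 0.84) and Rps4y2, a paralogue of Rps4x, by -0.14 (adjusted p = 0.592). Beyond Rpl39l1 and the dim Rpl3 probe set, the most negative values were those of Rps15 (log2 -0.23, adjusted p = 0.675, blocked 0.132), a protein of the 40S head, and Rpl41, a very short 60S protein (-0.15, adjusted p = 0.541, blocked 0.0926). Rps29, Rps23, Rps24 (1369966_a_at) and Rpl27a, all with bright signals, changed by -0.05, 0.02, -0.07 and 0.01, all within their standard errors without the block. With the block the Rps24 change exceeded its standard error of 0.05 but did not pass (adjusted p = 0.388 in limma). In all 3 runs it was negative.

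The start of these genes is shown because the TOP motif is the feature they are known to share. RefSeq promoter entries (build GRCr8) were found for 38 of the 44 genes. Within 25 bases either side of the annotated start, a run of at least 8 pyrimidines (C or T, on the gene's strand) was present in 25 of 38 (65.8%), against 19.4% of all 33469 promoters in the table. It was present in 24 of 33 core genes and in 1 of 5 paralogues, that of Rps4y2. Of the core genes with a rise at 4 d in the blocked fit, 7 of 11 had such a run, as did 17 of the other 22. The 15 bases on either side of the start are given below 5′ to 3′ for 6 of the genes that rose in the blocked fit and for Rpl39 and its paralogue, with the longest pyrimidine run of the window in capitals.
Rpl35, chr3:43165907-43165936, minus strand: cgCCCCTTCCTCTTTCTCTCgaaccgggcg
Rpl13a, chr1:104748899-104748928, minus strand: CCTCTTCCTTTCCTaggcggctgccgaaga
Rps3, chr1:163195762-163195791, minus strand: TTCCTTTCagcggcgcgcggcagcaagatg
Rpl19, chr10:83519049-83519078, plus strand: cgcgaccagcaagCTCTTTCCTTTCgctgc
Rpl3, chr7:113507976-113508005, minus strand: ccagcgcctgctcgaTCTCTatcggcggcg
Rpl6, chr12:41011676-41011705, minus strand: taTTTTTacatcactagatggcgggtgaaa
Rpl39, chrX:121195882-121195911, minus strand: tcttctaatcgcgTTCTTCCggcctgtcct
Rpl39l1, chr10:5966607-5966636, minus strand: actgccaggccgTCCCgctatcctggtgtg
The window of Rpl35 held a run of 18 and that of Rpl13a a run of 14, whereas Rpl6 and Rpl3, which also rose in the blocked fit, held 5 each. Rpl39l1 held 4 in the printed window and 7 within 25 bases, beside 7 and 14 for Rpl39. In the full 300 bases on both strands, CCGGAAG, a core of sites for ETS factors, was found in 10 of 38 (26.3%, against 8.75% of all promoters), AAGATGGC, a core of YY1 sites, in 4 (10.5%, against 3.17%), and the TATA sequence TATAAA in 6 (15.8%, against 14.2%). These matches describe letters at annotated starts, and no match says only that the letters are not in that window.

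At 8 h against control, 0 of 50 probe sets rose or fell in limma. At an unadjusted p below 0.05 there were 0 as well, where 485 of all 19808 tested probe sets were higher and 289 lower. The median standard error of the 50 was 0.21 on the log2 scale without the block and 0.08 with it. A change must exceed its standard error several times to pass the adjustment, so changes larger than these values could also be missed. All tested probe sets gave 0.0656% higher and 0% lower. With the blocked fit 0 passed as well (0.268% and 0.0101% of all tested probe sets). Of the 50, Rpl22, a 60S protein, alone had an unadjusted p below 0.05 in that limma fit, where 1739 of all 19808 tested probe sets did. The median log2 change of the 50 was 0.07 without the block and 0.00 with it, with 0.03 in run 1 and 0.00 in run 3. In 16 of 50 (32%) both runs were higher and in 10 (20%) both were lower, where all tested probe sets gave 25.8% and 27.5%. In 1 of 50 (2%), Rpl7l1, all arrays at 8 h lay above all controls, where 7.32% of all tested probe sets did so, and in 0 below, against 7.61%. The largest positive values were those of the dim Rps24 probe set (log2 0.29, unadjusted p = 0.341), Rps16 (0.21, 0.404) and Rpl35 (0.20, 0.314). The largest negative ones were those of Rpl39 (-0.24, 0.431), Rpl22 (-0.16, 0.375) and Rpl6 (-0.09, 0.535). All were smaller than 2 standard errors.

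At 4 d against 8 h, Rpl6 rose by a log2 of 0.58 (SE 0.13; adjusted p = 0.034 in limma, 0.0009 with the blocked fit), and its run values were 0.59 and 0.67. It was the 1 of 50 (2%) that rose, and 0 fell, where 3.58% of all tested probe sets rose and 2.47% fell. With the blocked fit 7 rose (14%) and 0 fell, where 8.56% of all tested probe sets rose and 7.08% fell. Besides Rpl6 they were Rpl35 (adjusted p = 0.259 in limma, 0.00257 with the block), Rpl13a (0.435, 0.00214), Rpl3 (0.501, 0.00187), Rps3 (0.768, 0.00858), Rpl26 (0.526, 0.00871) and the Rpsa probe set 1388244_s_at (0.00557 with the block). The median of the 50 was 0.01 without the block and 0.08 with it. Their median standard error with the block was 0.08, against 0.18 over all tested probe sets. In 2 of 50 (4%), Rpl6 and Rpl26, all arrays at 4 d lay above both at 8 h, where 21.2% of all tested probe sets did so, and in 0 below, against 13.8%. In both runs with an 8 h array, 26 of 50 (52%) were higher and 6 (12%) lower, where all tested probe sets gave 39.4% and 29.9%. These comparisons share the 4 d arrays with the comparison against control.

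Of other genes tied to the ribosome, Rack1, a 40S protein and scaffold for kinases, had 2150, 1993 and 2701 at 4 d, 1280 and 1891 at 8 h, and 1483, 1569 and 1906 in controls. Every 4 d array lay above all others, and the log2 change of 0.46 (SE 0.18) had adjusted p = 0.159 in limma and 0.00312 with the blocked fit. Of 31 ribosome biogenesis genes 1 rose and 2 fell (blocked 3 and 3; median 0.08), where 7.61% of all 11248 tested genes rose and 5.17% fell (blocked 15.3% and 11.9%; median 0.03). Ltv1, a 40S assembly factor, rose (log2 0.74, adjusted p = 0.0324 in limma), and Bysl, which acts in 40S processing (-0.56, 0.0231), and the nucleolar GTPase Gnl3 (-0.46, 0.0397) fell. Of 31 translation factors 1 rose and 2 fell (blocked 5 and 6; median 0.03). These were the start-site scanning factor Eif1ax (0.89, adjusted p = 0.0119 in limma), the elongation factor subunit Eef1d (-0.67, 0.0099) and the scaffold Eif4g1 (-0.60, 0.0113). A list of 13 other genes with a TOP motif shares Rack1 and several translation factors with the lists above. Of these 0 rose and 1 fell, again Eef1d (blocked 3 and 3, median -0.01). Of 73 mitochondrial ribosomal protein genes 0 rose and 1 fell, Mrpl47 (-0.50, adjusted p = 0.0309 in limma; blocked 2 and 2; median 0.03). Of 16 genes in the mTORC1 and S6 kinase list, which also holds Myc and other linked regulators, 3 rose and 1 fell (blocked 5 and 1; median 0.12). They were Myc, which activates ribosome synthesis and had a dim signal (log2 1.05, adjusted p = 0.0363 in limma), the kinase Rps6ka3 (0.83, 0.032), the mTORC1 activator Rheb (0.52, 0.0478) and the mTORC1 inhibitor Tsc1 (-0.64, 0.0213). These calls depended on single arrays. Of the 3 biogenesis calls 0 were made without control 2, control 3 or 4 d 3, and 1 without 8 h 2, 4 d 1 or 4 d 2. Bysl and Gnl3 were also lost without control 1. Of the 3 translation factor calls Eif1ax and Eef1d were lost without 4 d 1, where the TOP call was lost too, and Eif4g1 without control 2. The mitochondrial call was lost without control 1, control 2 or any of the 4 d arrays. Of the 4 mTORC1 and S6 kinase calls 0 were made without control 1, control 2 or 4 d 1, 1 without 4 d 3, and 2 without control 3 or 4 d 2. At 8 h 0 genes of these lists passed in limma or in the blocked fit. In limma without the block 2 genes, both of the mTORC1 and S6 kinase list, had an unadjusted p below 0.05. Of all 11248 tested genes 311 were higher and 146 lower at that p. With the block 1 biogenesis gene, 1 translation factor, 3 mitochondrial ribosomal protein genes and 3 genes of the mTORC1 and S6 kinase list did. Of all tested genes 1001 did.

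Markers of several cell types moved at 4 d as well. Of all 11248 tested genes 7.61% rose and 5.17% fell at 4 d (blocked 15.3% and 11.9%), so 1 call in a short list is not read as a change of that cell type. At an unadjusted p below 0.05 in limma without the block, 1811 of all tested genes were higher and 1265 lower. The summed signal of 10 genes of elongating and elongated spermatids was 73481 to 106237 at 4 d, 111412 to 144500 at 8 h and 107560 to 160935 in controls, and 5 of the 10 fell (blocked 10). That of 5 round spermatid genes was 11360 to 12539 at 4 d, 17817 to 20288 at 8 h and 17390 to 19681 in controls, and 3 fell (blocked 5). Of 11 leukocyte genes 7 rose and 1 fell (blocked 9 and 1), with sums of 7188 to 9262 at 4 d, 4629 to 5126 at 8 h and 4814 to 5225 in controls. Of 7 Sertoli cell genes 1 rose and 1 fell (blocked 2 and 2), with sums of 18150 to 24506 at 4 d, 12169 to 13863 at 8 h and 10315 to 12302 in controls. Their single log2 changes at 4 d lay between -1.50 and 1.88 (median 0.24), so the sum does not describe each of them. Of 7 Leydig cell genes 1 rose and 0 fell (blocked 4 and 0), with sums of 7797 to 12776 at 4 d, 5430 to 7374 at 8 h and 6092 to 8518 in controls. Both red blood cell genes rose in either fit, with sums of 3198 to 5608 at 4 d, 2040 to 2304 at 8 h and 1509 to 2484 in controls. Of 6 peritubular and smooth muscle genes 1 rose and 0 fell (blocked 2 and 1), with sums of 2750 to 3599 at 4 d, 2471 to 2640 at 8 h and 2460 to 2588 in controls. Of 4 endothelial genes 0 passed in limma (2 at an unadjusted p below 0.05, blocked 1 higher). All 4 were higher in each run, as were 3696 of all 11248 tested genes. Of 5 spermatocyte genes 0 rose or fell in either fit (1 lower at an unadjusted p below 0.05 in limma), and of 2 spermatogonium genes 0 passed (1 higher at an unadjusted p below 0.05, blocked 1 higher). No marker was listed at 0, and Itgam of the leukocyte list and Pecam1 of the endothelial list stayed below the minimum. The part of these markers in the changes of ribosomal protein transcripts was not tested.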

How the data were processed

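Total RNA of whole testis (0.1 g of frozen tissue, 5 µg of RNA) was hybridised to Affymetrix Rat Genome 230 2.0 arrays, 1 per sample. The deposited values are intensity signals per probe set on a linear scale, computed by the authors in MAS 5.0 per the submitters' processing notes, and their design text also names GeneSpring. Detection calls were not used here. Each array was brought to a 2% trimmed mean of 250 and log2(signal + 16) was taken, which understates the change of dim genes. A probe set with a deposited signal of at least 50 on 2 arrays was tested (19808 in all), without 57 control probe sets. Of 31042 non-control probe sets 20826 had 1 symbol in the platform annotation, 436 several and 9780 none. The identifiers of 53 of the 55 matched probe sets were found in RefSeq.

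All 8 arrays were fitted in limma 3.58.1 under R 4.3.3 (eBayes with a trend, no block), with Benjamini-Hochberg adjustment and a threshold of 0.05. The fit was tested on simulated data. Runs were taken from the scan dates in the settings files, and whether arrays of a scan day were also hybridised together was not checked. Fluidics version 4 served run 2, against version 5 for the others. Deviations from group means correlated at 0.353 to 0.506 for arrays that shared a run but not a group, against -0.475 to 0.246 where runs differed, so the run was taken as the pairing, and 8 h replicate 2 was paired with replicate 3 of the other groups. Alternatives were other pseudocounts (4 and 64), quantile normalization, equal medians, no minimum or 100, no variance trend, the run as a block, 2 groups alone, and each array left out. Leaving out run 2 or run 3, and the block together with another scaling, were added after the data were seen. The members and lists were chosen with earlier results of these data known. Named members were the largest changes at 4 d and 8 h, the brightest and dimmest in controls, all paralogues with their parent genes, and up to 3 called members of each other list. Rheb, Rps6 and the remaining probe sets called with the block alone were named after their values were seen. Promoter windows came from the RefSeq table of build GRCr8, read with Python 3.11.15 and pandas 2.3.3.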

Additional observations from a re-analysis of the deposited data

Results flagged for a closer look

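Rpl6 differed between the treated groups: its log2 difference of 4 d against 8 h was 0.58 by the test of that difference itself in limma (adjusted p = 0.034), with signals of 3714, 3515 and 4148 at 4 d and 2464 and 2593 at 8 h.

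A signal outside the member list came from the 35 probe sets above the minimum that carry several symbols, 1 of them a ribosomal protein, and that cannot be given to 1 gene. Of these 1 rose (2.86%) and 0 fell at 4 d against control in limma, where 6.13% of all tested probe sets rose and 3.71% fell. The share that rose thus lay below that of all probe sets. With the blocked fit 6 rose (17.1%) and 1 fell (2.86%), where 13.3% of all tested probe sets rose and 9.17% fell. Their median log2 change was 0.01. Probe set 1367625_at had 3406, 3128 and 4313 at 4 d, 1966 and 2375 at 8 h, and 1927, 2143 and 2329 in controls. All its 4 d arrays lay above all others, with a log2 change of 0.75 (SE 0.15, adjusted p = 0.0129 in limma).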

How the results depend on the processing

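Rises among the 50 ribosomal protein probe sets at 4 d against control numbered 2 (4%, where 6.13% of all tested probe sets rose). They numbered 13 with quantile normalization (26%, 5.71% of all), 0 with equal medians (3.93% of all) and 1 with no signal minimum (2%, 3.27% of all). They numbered 0 without a variance trend (5.62% of all) and without run 2 (1.76% of all). With single control or 4 d arrays left out they numbered 0 to 1 (2.93% to 5.16% of all). Without run 3, which leaves 1 array at 8 h, the median log2 change of the 50 was 0.08. With the replicate block for the paired run there were 12 rises and 1 fall (13.3% and 9.17% of all tested probe sets). There were 31 rises and 0 falls with quantile normalization added (11.8% and 10.8% of all), and 4 and 5 with equal medians added (8.76% and 15%). The 1 rise at 4 d against 8 h (2%, where 3.58% of all tested probe sets rose) became 6 with quantile normalization (12%, 3.21% of all). It became 7 with the replicate block (14%, 8.56% of all). The count was 0 with equal medians (2.07% of all), with no minimum (1.7%), without a trend (3.08%) and with the 2 groups alone (3.37%). Without run 2 it was 0 as well, and the share of all tested probe sets was lower still. With single control or 4 d arrays left out it was 0 to 1 (1.32% to 4.42% of all). Without run 3 the median log2 change of the 50 at 4 d against 8 h was 0.02. The block with quantile normalization gave 23 rises and 1 fall there (7.68% and 7.84% of all), and with equal medians 6 and 4 (6.3% and 10.2%). At 8 h against control the count stayed at 0 in every alternative run for members and lists. Equal medians moved the median of all tested probe sets from 0.04 to -0.10, and the cause of the other shifts was not tested.

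Among the other lists at 4 d, Rack1 passed (1) with quantile normalization, with the replicate block and without run 3. The 3 biogenesis calls became 1 without a trend, 6 with the block, 0 without run 2 or run 3, and 0 to 2 with single arrays left out. The 3 translation factor calls became 5 with quantile normalization, 11 with the block, 0 without run 2, 5 without run 3, and 1 to 4 with single arrays left out. The 1 TOP call became 4, 6, 0 and 3 in the same order, and 0 to 1. The 1 mitochondrial call became 0 without a trend, 4 with the block, 0 without run 2, and 0 to 1 with single arrays left out. The 4 mTORC1 and S6 kinase calls became 1 with equal medians, 1 with no minimum, 0 without run 2, 2 without run 3, and 0 to 4 with single arrays left out.

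Several small changes turned sign. Quantile normalization gave Rpl41 0.055, Rpl22 0.10, Rps29 0.19 and the bright Rps24 probe set 0.15. Equal medians gave Rps23 -0.13, Rpl27a -0.14, and the Rpl7 probe sets -0.024 and -0.079, all of them changes smaller than the shift that equal medians gives every probe set. Without run 2 Rps23 had -0.029 and Rpl27a -0.057, and without run 3 Rpl39 had 0.024. With single arrays left out the lowest and highest log2 changes were -0.0091 and 0.35 for Rplp0, -0.48 and 0.0046 for Rps15, -0.97 and 0.39 for Rpl3 1396049_x_at, -0.020 and 0.35 for Rps16, -0.29 and 0.17 for Rpl39, -0.20 and 0.056 for Rpl22, -0.24 and 0.092 for Rps29, -0.12 and 0.21 for Rps23, -0.17 and 0.036 for Rps24 1369966_a_at, -0.11 and 0.15 for Rpl27a, -0.12 and 0.40 for Rpl26l1, -0.031 and 0.23 for Rpl7 1375788_at, -0.086 and 0.16 for Rpl7 1398917_at, and -0.22 and 0.041 for Rps27l. Precision was limited by the 2 or 3 arrays per group, and for Rpl39, Rpl26l1, Rps27l and Rps24 1390494_at by a signal near the minimum.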
